A study of Homo sapiens with 7 samples.

Results

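The claudins are the membrane proteins that build the strands of tight junctions, the seals between neighbouring epithelial cells. Here 10 claudin genes of the intestinal epithelium (CLDN1, CLDN2, CLDN3, CLDN4, CLDN5, CLDN7, CLDN8, CLDN12, CLDN15 and CLDN23) were followed in HCT116 cells treated with bafilomycin A1. Every non-control spot whose gene name equalled one of these symbols was taken, which gave 13 probes of 60 bases, 1 spot each, among the 50599 probes and 36337 gene names of the array. HCT116 is a near-diploid human colon carcinoma line, and the derivative used carries the histone H2B fused to GFP. Bafilomycin A1 blocks the V-ATPase, the proton pump that acidifies lysosomes. The 4 samples (replicates 1 to 4) received 10 nM of the drug for 30 h and were each hybridised to 1 single-colour array on a shared slide. The series calls them biological replicates, and nothing further says how the cultures were kept apart. The 3 untreated HCT116 H2B-GFP samples were not analysed here, so the values describe claudin expression and its replicate error in drug-treated cells and say nothing of a response to the drug.

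Claudins cross the membrane several times and pair with claudins of the next cell through their outer loops. Some members tighten the seal, such as CLDN1, CLDN3, CLDN5 and CLDN8, whereas CLDN2 and CLDN15 form channels that let small cations through. Which claudins an epithelium makes therefore sets how leaky it is, and colon epithelium is known for a mixture of the tightening kind with CLDN4 and CLDN7.

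7 of the 10 claudin genes, and 10 of their 13 probes, were well above background on all 4 arrays. These were CLDN2, CLDN3, CLDN4, CLDN7, CLDN12, CLDN15 and CLDN23. CLDN1, CLDN5 and CLDN8 passed on no array. Of all gene names on the array, 54.2% had a probe well above background on all 4 arrays and 35.2% on none, and of all probes 50.7% passed on all 4. "Well above background" is a flag set by the scanner software for each spot, and the dimmest probe that carried it had a background-subtracted signal of 21.4, 21.5, 19.2 and 22.3 scanner units on replicates 1 to 4. No spot on any array was saturated.

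The probe letters show where along the messenger RNA these claudins were read. The probes of CLDN1, CLDN2 and CLDN3 contain AATAAA, the letters of the signal that directs addition of the poly(A) tail, though a match does not show that a transcript ends there. The last 30 bases of each are given with these letters in capitals.
CLDN1 (chr3:190024001-190024060, minus strand): atgggaagaAATAAAagcctacgtgttggt
CLDN2 (chrX:106174032-106174091, plus strand): taggtgatcAATAAAcacttgttgattgag
CLDN3 (chr7:73183327-73183386, minus strand): tatttttcAATAAAagcctttcgttttgca
Positions are those of GRCh37, and the letters run 5′ to 3′ in the sense of the transcript. Searched for on this strand only, AATAAA was present in 3 of the 13 claudin probes (23.1%) and in 7.88% of all 60-base probes of the array.

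CLDN15 is read far from the 3′ end. Its probe (chr7:100880822-100880881, minus strand, from base 346 of NM_014343) covers the start codon, in capitals in the stretch that begins there.
CLDN15: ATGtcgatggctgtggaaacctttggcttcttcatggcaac
CLDN4, CLDN7 and CLDN12 have 2 probes each. One lies closer to the 3′ end of the transcript in CLDN7 and CLDN12, and further downstream on the genome in CLDN4. The last 30 bases of each are shown because the probes of a pair behaved differently below. No letters are capitalised in these, since AATAAA was not found in them.
CLDN4 upstream probe (chr7:73244259-73244318, plus strand): tctgtagcatactccaagaatccggcgccc
CLDN4 3′ probe (chr7:73246907-73246966, plus strand): ctgttttgtaatttaagaagagctattcat
CLDN7 inner probe (chr17:7163822-7163986, minus strand): gagtttggccctgccatctttattggctgg
CLDN7 3′ probe (chr17:7163269-7163328, minus strand): attcccacccccctcttatttaaatagcta
CLDN12 inner probe (chr7:90042478-90042537, plus strand): atgcagtgtatgtcactattgctagtgctg
CLDN12 3′ probe (chr7:90044941-90045000, plus strand): ttttgaagtcacttttgagccctcatcaag
The 2 probes of CLDN7 start 553 bases apart on 1 transcript, and those of CLDN12 2463 bases apart. The CLDN7 inner probe covers 165 bases of the genome with its 60 bases and so bridges an intron. The CLDN4 probes lie 2648 bases apart on the genome and were designed on different transcripts, the upstream one on ENST00000431918 and the 3′ one on NM_001305. Their order is thus that of the genome, and whether 1 messenger RNA holds both was not tested. Among all 30 claudin probes of the array, the longest run of bases that probes of different claudin genes shared was 11, between CLDN1 and CLDN3.

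Among the tightening claudins, CLDN3 was read on every array and CLDN1, CLDN5 and CLDN8 on none. The background-subtracted signal of CLDN3 was 10184, 9586, 11780.5 and 8922 on replicates 1 to 4. On the scale used from here on, the log2 of this signal minus the log2 median of the array, CLDN3 was at 7.17 ± 0.15 (SD, n = 4), with replicate 3 highest and the other 3 arrays between 7.05 and 7.14. CLDN1, a claudin that skin and many other barriers depend on, gave signals of 7.41, -1.56, 2.88 and 3.15 on replicates 1 to 4. Only the value on replicate 1 passed the weaker flag for a positive and significant signal. CLDN5, the main claudin of blood vessel endothelium, gave 2.92, -3.35, 0.809 and 1.12. CLDN8, a tightening claudin of distal nephron and colon, was below 0 on every array, at -9.83, -5.62, -1.58 and -10.8. For these 3 genes the arrays give only a bound, since all their signals lay under the dimmest probe well above background, and a signal at or below 0 has no log2.

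**Figure D1:**
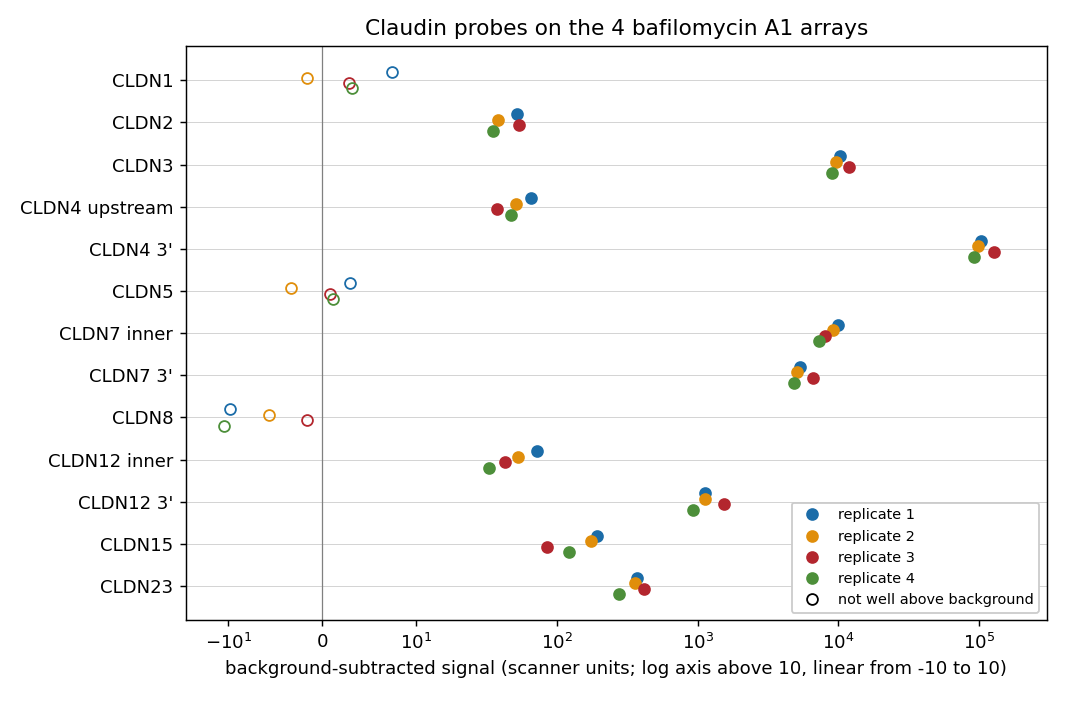
Background-subtracted signal of the 13 claudin probes (horizontal axis, scanner units, logarithmic above 10 and linear between -10 and 10) with 1 point per replicate array. Filled points are probes well above background on all 4 arrays and open points are CLDN1, CLDN5 and CLDN8, which passed on none. Values can be read between arrays within a row, not between rows, because probes differ in how strongly they bind.

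CLDN4 and CLDN7, claudins found along most simple epithelia, were both detected by both of their probes. The CLDN4 3′ probe gave 102182, 97844, 127970 and 90986 on replicates 1 to 4, which is 10.53 ± 0.20 on the log2 scale (SD, n = 4). Replicate 3 was again highest. The CLDN4 upstream probe gave 65.8, 51.4, 37.8 and 47.2, or -0.50 ± 0.28, and here replicate 3 was lowest. The CLDN7 inner probe gave 9900, 9210.5, 8039 and 7222, which is 6.93 ± 0.11, the smallest SD of the 10 detected claudin probes. The CLDN7 3′ probe gave 5356, 5048, 6559 and 4848, or 6.27 ± 0.19. For CLDN7 as well, replicate 3 was the highest array for the 3′ probe and below the mean for the inner one.

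Both channel-forming claudins were detected. CLDN2, a channel for cations and water, gave 52.2, 38.0, 53.7 and 35.3 on replicates 1 to 4, or -0.67 ± 0.24 on the log2 scale (SD, n = 4). Replicates 1 and 3 lay above replicates 2 and 4. CLDN15, the cation channel of the gut whose probe lies at the start codon, gave 194, 174, 85.0 and 121, or 0.96 ± 0.49. Its arrays differed most of all claudin probes, with the highest 2.08 times the lowest after centring, and replicate 3 was lowest. Without replicate 3 this fold was 1.32.

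CLDN12 and CLDN23 are less typical members of the family. The CLDN12 3′ probe gave 1129, 1125, 1548 and 925, or 4.05 ± 0.28 on the log2 scale (SD, n = 4), with replicate 3 standing highest. The CLDN12 inner probe gave 72.8, 53.3, 42.5 and 32.9, or -0.54 ± 0.38, and was highest on replicate 1 and lowest on replicate 4. CLDN23 (chr8:8561413-8561472) gave 374, 358, 419 and 278, or 2.33 ± 0.18, again highest on replicate 3.

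The probes of CLDN2, CLDN12 (inner) and CLDN4 (upstream) were thus detected at signals of 32.9 to 72.8. Genes known from other cell types also passed the flag, in part at such signals. Of 6 leukocyte markers, PTPRC, CD3E, CD14, ITGAM and CD68 were well above background on all 4 arrays. The brightest probes of CD3E and ITGAM, at 38.2 to 63.5, lay in the range of these claudin probes, and those of the other 3 lay above it, at 84.0 to 190. Of 6 endothelial markers, CDH5 and VWF passed on all 4 arrays at 96.8 to 167, and of 6 fibroblast markers COL1A1 did at 390 to 672. CLDN15, at 85.0 to 194, overlapped the range of PTPRC, CD14 and CD68, and CLDN23, at 278 to 419, lay largely below COL1A1. Whether the dim claudin probes, CLDN15 and CLDN23 read claudin messenger RNA or a background of this kind was not tested. 9 of 12 markers of simple or intestinal epithelium were detected, against 54.2% of all gene names. They were EPCAM, CDH1, KRT8, KRT18, KRT19, KRT20, CDX1, CDX2 and ELF3, with KRT20 dim at 39.8 to 100. VIL1, CDH17 and GPA33, which mark differentiated enterocytes and colonocytes, passed on no array, whereas KRT20 passed on all 4.

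Over the 10 detected claudin probes the SD between replicate arrays had a median of 0.22 on the log2 scale, against 0.20 over all 24633 detected probes with usable spots on every array. The claudin SDs ran from 0.11 for the CLDN7 inner probe to 0.49 for CLDN15, and CLDN15 alone lay above the 90th percentile of all detected probes, 0.38. The highest and the lowest array lay more than 1.4-fold apart, which is the fold that the methods take as a change, for 5 of the 10 probes (CLDN2, the CLDN4 upstream probe, both CLDN12 probes and CLDN15) and for 43.5% of all detected probes. CLDN2 passed this limit narrowly, at 1.41-fold. After normexp correction and quantile normalization the count was 1 (CLDN15), and without replicate 3 it was 1 (the CLDN12 inner probe). The share of all detected probes was not taken under these settings, so neither count can be set against the array. Dixon's ratio, the gap of the outermost array to its neighbour over the whole range, set no array apart in any of the 10 (0 probes), against 7.3% of all detected probes.

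**Figure D2:**
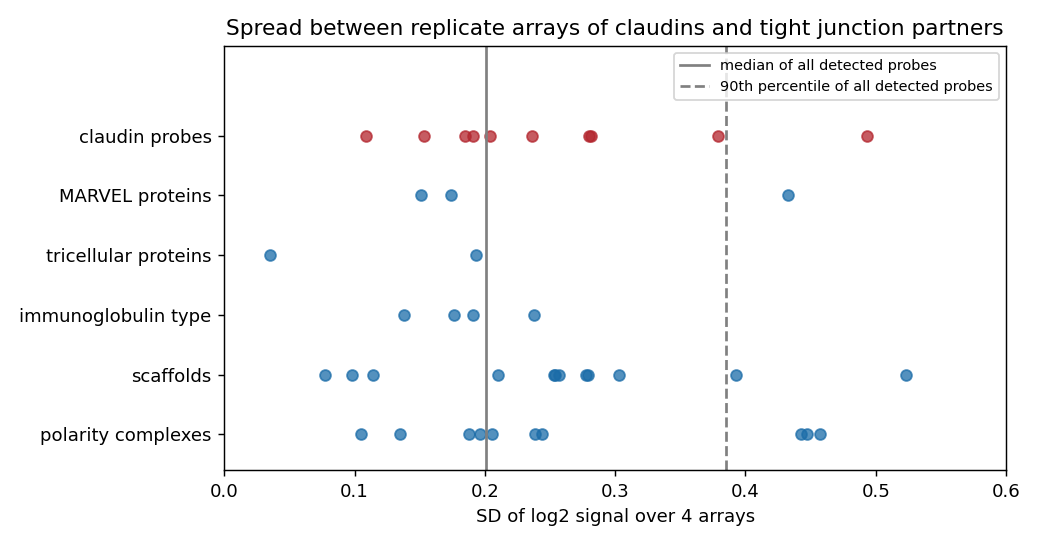
SD of the log2 signal over the 4 replicate arrays (horizontal axis) for the 10 detected claudin probes, 1 point each, and for the 31 detected tight junction partner genes by role. The solid line is the median of all detected probes (0.20) and the dashed line their 90th percentile (0.38), which CLDN15 exceeds among the claudins.

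Replicate 3 was the highest array for 6 of the 10 claudin probes, against 50.4% of all detected probes. It was the lowest for 2 of the others, CLDN15 and the CLDN4 upstream probe. Replicate 4 was lowest for 4 claudin probes and for 34.6% of all. The mean deviation of the 10 claudin probes from their own 4-array means was 0.06, 0.01, 0.04 and -0.11 on replicates 1 to 4, and that of all detected probes -0.01, 0.04, 0.07 and -0.09. On replicate 4, 1 of the 10 claudin probes lay above its mean, against 19.5% of all detected probes. On replicate 3, 6 of the 10 did, against 63.3%, so the split itself is close to that of the array. The 6 probes lay 0.22 to 0.41 above their means there (CLDN2, CLDN3, CLDN23 and the 3′ probes of CLDN4, CLDN7 and CLDN12). The other 4 lay 0.09 to 0.69 below (CLDN15, the CLDN4 upstream probe and the inner probes of CLDN7 and CLDN12). The share of G and C was 35% to 48.3% in the 6 probes and 40% to 55% in the 4. Replicate 3 also carried the most spots marked as outliers by the software, 2249 against 514 to 725, none of them a claudin spot.

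**Figure D3:**
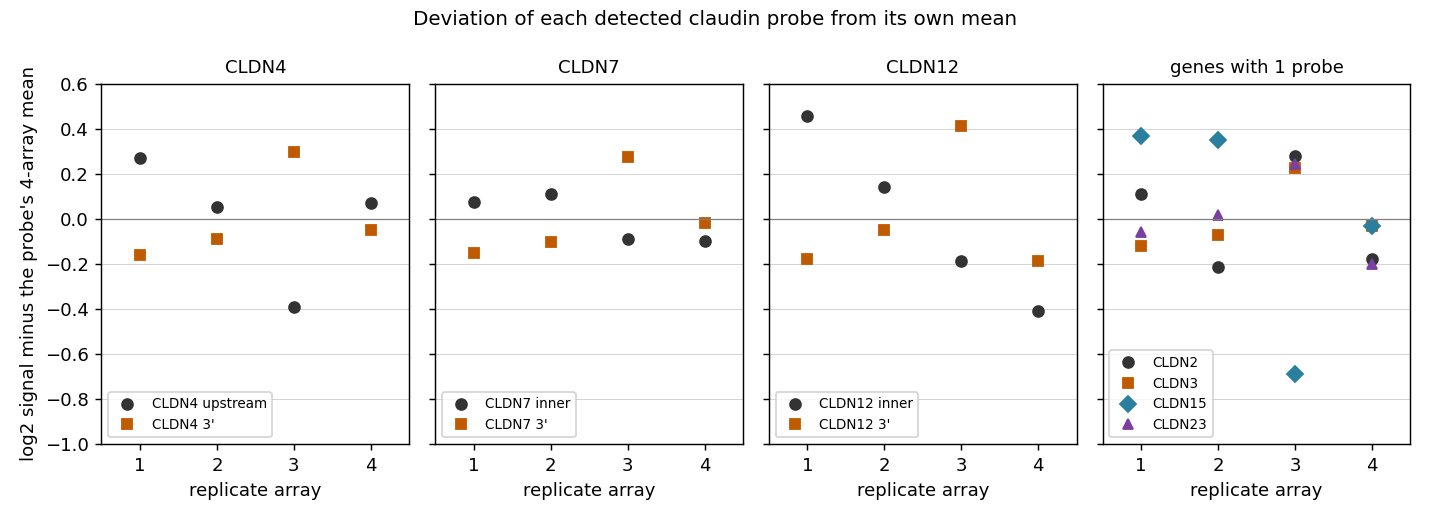
Deviation of each detected claudin probe from its own mean over the 4 arrays (vertical axis, log2) on replicates 1 to 4 (horizontal axis), in 3 panels for the genes with 2 probes and 1 panel for the genes with 1. On replicate 3 the 3′ probes of CLDN4, CLDN7 and CLDN12 lie above 0 and their upstream or inner probes below, and CLDN15, read at its start codon, lies lowest at -0.69.

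Pairs of probes within a gene can be compared without the centring of an array, which cancels in their difference. On replicate 3 the deviation of the 3′ probe exceeded that of its partner by 0.69 for CLDN4, 0.36 for CLDN7 and 0.60 for CLDN12 on the log2 scale. On replicate 1 the same differences were -0.43, -0.23 and -0.63. On replicate 2 they were -0.14, -0.21 and -0.19. Replicate 4 gave -0.12, 0.08 and 0.22, with no common direction. A gain of the 3′ probe over its partner in all 3 genes was therefore seen on replicate 3 alone. The differences of a pair cancel over the arrays, so a gain on replicate 3 brings losses elsewhere. The partners in CLDN4 and CLDN12 are dim probes, at 37.8 to 65.8 and 32.9 to 72.8, so position cannot be told apart from brightness there. The CLDN4 probes also differ in transcript and in their share of G and C, 55% upstream and 35% at the 3′ probe. They need not mark 2 positions on 1 messenger RNA.

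The same direction was found beyond the claudins. Among 2817 pairs of detected probes that lie on 1 RefSeq transcript, the probe closer to the 3′ end exceeded the other by a median of 0.19 on replicate 3, with 75.5% of the pairs above 0. The medians were -0.09 on replicate 1 (29.8% above 0), -0.10 on replicate 2 (30.4%) and close to 0 on replicate 4 (49.6%). Deviations are taken from each probe's own mean over the arrays, so a gain on replicate 3 brings losses elsewhere. The negative medians are therefore not separate observations. For the 2060 pairs at least 500 bases apart the median on replicate 3 was 0.25, with 78.3% above 0. Pairs within a gene are not independent and no test was made. The probes of a pair were not matched for signal or share of G and C, so position cannot be told apart from these here either. This comparison was chosen after the claudin values had been seen, the CLDN4 pair is not among those counted because its probes lie on different transcripts, and the cause of the difference between arrays was not tested.

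**Figure D4:**
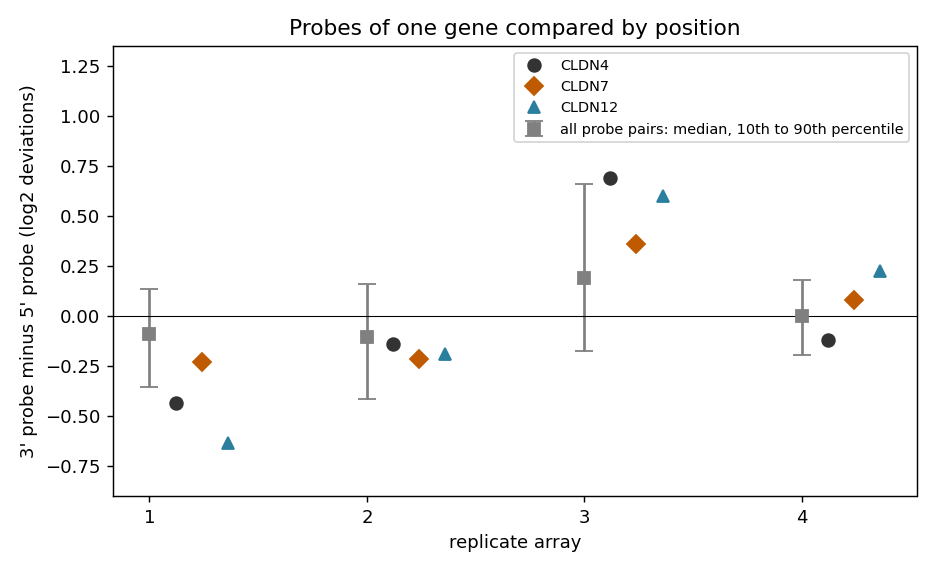
Deviation of the probe nearer the 3′ end minus that of the probe nearer the 5′ end (vertical axis, log2) on each replicate array (horizontal axis). For CLDN4 this order is that on the genome, since its probes were designed on different transcripts. Grey squares and bars are the median and the 10th to 90th percentiles of 2817 probe pairs of all genes, and coloured points are CLDN4, CLDN7 and CLDN12, which lie at 0.69, 0.36 and 0.60 on replicate 3.

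Where the probes of a gene are reduced to their median, as in the methods, this is hidden. The gene value of CLDN4 was 5.07, 5.00, 4.97 and 5.03 on replicates 1 to 4, an SD of 0.04, although its probes had SDs of 0.28 and 0.20. This value lies between probes of different transcripts with means of -0.50 and 10.53, and neither probe reads it. The gene value of CLDN7 was 6.56, 6.60, 6.69 and 6.54, an SD of 0.07 against 0.11 and 0.19 for its probes. For both genes the highest and the lowest array then lay only 1.07-fold and 1.11-fold apart. The gene value of CLDN12 had an SD of 0.20 against 0.38 and 0.28. These SDs rest on few arrays: that of CLDN12 was 0.05 without replicate 4, that of CLDN7 0.03 without replicate 3, and that of CLDN4 0.11 with the processed signal. In each of the 3 genes the gene value varied less than either probe. The genes with 1 probe, CLDN2, CLDN3, CLDN15 and CLDN23, have no second probe to average with, and their gene values are those of the probe.

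**Figure D5:**
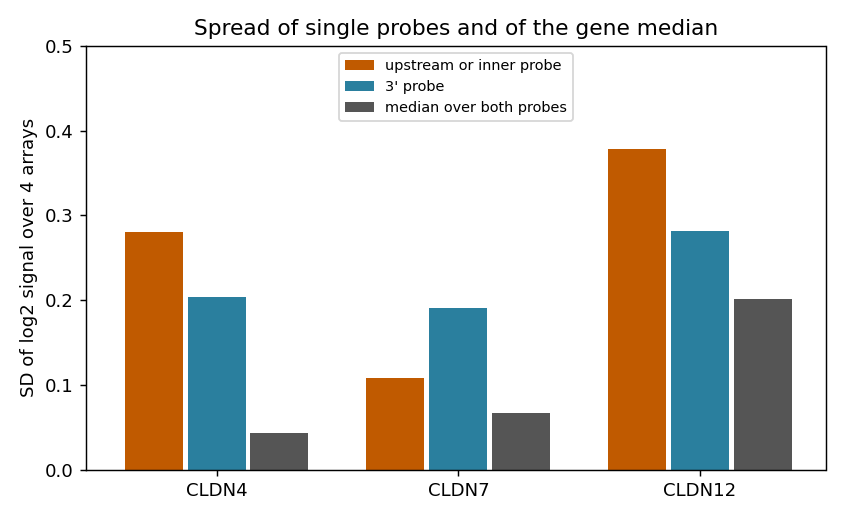
SD of the log2 signal over the 4 replicate arrays (vertical axis, from 0) for the upstream or inner probe, the 3′ probe and the median over both, in CLDN4, CLDN7 and CLDN12. The median over both probes, which is their average, has the smallest SD in each gene, 0.04 for CLDN4, 0.07 for CLDN7 and 0.20 for CLDN12.

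Of 13 further claudin genes on the array, 4 were well above background on all 4 arrays (CLDN9, CLDN16, CLDN19 and CLDN24), against 54.2% of all gene names. CLDN6 passed on 3 arrays, CLDN10 on 2 and CLDN25 on 1, and CLDN11, CLDN14, CLDN17, CLDN18, CLDN20 and CLDN22 on none. CLDN19, best known from the thick ascending limb of the kidney, gave 1361 to 1691 with its brightest probe. CLDN9 and CLDN19 each passed on all 4 arrays with only 1 of their 2 probes. CLDN9, CLDN16 and CLDN24 gave between 23.2 and 78.6.

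The proteins that work with claudins at the junction were largely detected. Of 39 partner genes 38 were found on the array by name (LIN7C was not), and 31 of them were well above background on all 4 arrays. That is 81.6% of the 38, against 54.2% of all gene names. Their SD between arrays had a median of 0.21, against 0.19 over all detected genes, and 15 of the 31 spanned more than 1.4-fold, 48.4% against 41% of the 19083 detected genes with usable spots on every array. Gene values in this list are medians over the detected probes of a gene.

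All 3 MARVEL-domain proteins, which share the claudin strands, were detected. Occludin (OCLN) was at 2.74, 3.03, 3.71 and 2.85 on replicates 1 to 4, highest on replicate 3, with an SD of 0.43. MARVELD2, a protein of tricellular corners, was at 2.99 ± 0.17 (SD, n = 4). Of the tricellular receptors, LSR and ILDR1 were detected and ILDR2 was on no array. Of 7 immunoglobulin-type adhesion proteins 4 were detected, among them F11R at 6.58 ± 0.14. JAM3 passed on no array and JAM2 and IGSF5 on 1.

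Some scaffolds, TJP1 among them, bind the tails of the claudins and tie the strands to actin, but not every scaffold in the list does. Of the 14 scaffold genes 12 were detected. Of these, 8 spanned more than 1.4-fold, 66.7% against 41% of all detected genes, and no test was made. TJP1 was at 5.18, 5.24, 5.75 and 5.15 on replicates 1 to 4, with replicate 3 clearly above the rest. CGN, the cingulin gene, was at 4.54, 4.61, 5.11 and 4.67, also highest on replicate 3. SYMPK was at 7.94 ± 0.08. MAGI2 and MPDZ passed on no array. Of the 11 polarity genes found, 10 were detected and PARD3B was not.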

How the data were processed

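The authors deposited 1 Feature Extraction 10.7.3.1 scanner file per array, holding intensity values (linear, local background removed by the software, arrays not normalized to each other). Labelling used 100 ng of RNA, and the labels give 10% serum where the methods give less. Between 55.6% and 60.4% of the 58717 non-control spots were well above background. All arrays shared 1 slide, so slide and scan cannot be tested as a batch, and the spread may be technical in part. The number of arrays limits the precision.

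Following the methods, levels are log2 of the background-subtracted signal less the array median (taken over positive non-control probes), and a gene's value is the median of its probes. Outlying spots were left out of levels, spots of a probe averaged, and signals at or below 0 left out on that array. A probe counted as detected where over 50% of its spots were flagged well above background, a gene where 1 probe was detected on all 4 arrays. No fit across genes was made, as 1 group was available. Genes with values are the 10 members and the partners named by rule (OCLN, MARVELD2, TJP1, F11R, CGN and SYMPK; some items are not reported here), and further genes are named for detection only. CLDN19 and the signals beside dim probes were added. The members and lists were chosen with earlier results of these data known. Symbols were matched to gene names in the files and older symbols.

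Alternatives tried: processed signal less its 75th percentile, normexp (offset 50) with quantile normalization in limma 3.58.1, centring on all probes, outlying spots kept, other detection rules and leaving out each array. The probe-pair comparison was added after seeing the data. Statistics were tested on simulated data. Python 3.11.15, numpy 2.4.6, pandas 2.3.3, scipy 1.17.1, matplotlib 3.10.9 and R 4.3.3 were used.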

Additional observations from a re-analysis of the deposited data

Results flagged for a closer look

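Dixon's ratio was taken over the 4 arrays for 41 groups of values, the 10 detected claudin probes and the 31 detected partner genes, and marks about 5% of groups by chance. It set replicate 3 apart from the other arrays in 3 of them, all scaffold genes in the list and all highest there. Over all detected probes the ratio marked 7.3%, and replicate 3 was the highest array for 50.4%. The count of 3 is thus close to the share over the array. TJP1, the gene of the claudin-binding scaffold ZO-1, was at 5.75 on replicate 3 (log2, centred on the array median) against 5.15 to 5.24 on the other arrays. MAGI3 was at 2.85 against 2.30 to 2.38, and YBX3, named CSDA on the array, at 7.22 against 6.77 to 6.84. MAGI3 and YBX3 are named here after their values were seen.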

How the results depend on the processing

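The count of 7 detected claudin genes was 7 under every detection rule run and without any array, and that of 31 detected partners was 31 without any array. The count of claudin probes spanning more than 1.4-fold was 1 after normexp with quantile normalization and ran from 1 (without replicate 3) to 5 with 1 array left out, and was 7 with centring on all probes. Their median SD was 0.10 after quantile normalization and ran from 0.11 (without replicate 3) to 0.25, and that of the partners was 0.15 and ran from 0.15 (without replicate 3) to 0.24. The matching counts and SDs over all detected probes were taken only on the scale of the methods with all 4 arrays. Dixon's ratio set 1 claudin probe apart with the processed signal (CLDN23) and 1 after quantile normalization (the CLDN12 3′ probe). The mean claudin deviation on replicate 1 became -0.035 and on replicate 2 -0.050 with centring on all probes. On replicate 4 it became -0.024 with the processed signal, -0.0038 after quantile normalization and 0.016 with centring on all probes, so no direction of an array over the claudins is fixed by these data. On replicate 3 the 3′ probe stayed above its partner in CLDN4, CLDN7 and CLDN12 under each of 3 alternatives added after seeing the data, at 0.28, 0.36 and 0.32 after quantile normalization. The causes of these shifts were not tested. Levels of single probes are tied to the scale, and all 29 of 80 that moved by more than their SD did so under the 3 other scalings. The fold between arrays moved by over 1.5 times for the CLDN12 inner probe (1.17 after normexp with quantile normalization) and for CLDN15 (1.32 without replicate 3). The normexp step adds an offset of 50, and the CLDN12 inner probe had signals of 32.9 to 72.8. An added constant narrows folds between signals this low, and by how much was not tested. Of the SDs of gene medians, 14 of 63 moved beyond the spread (SD) of their leave-one-out values. No paired analysis was possible because the untreated arrays that share replicate numbers with the treated ones were not analysed here. Features of the claudin proteins were planned and not run. Signal over background limits CLDN1, CLDN5 and CLDN8 to a bound.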
